A study of Homo sapiens with 4 samples.

Results

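Binding of the forkhead factor FOXK2 was examined at 10 genes of TGF-β signalling in OVCAR5, an ovarian cancer cell line. The 10 genes were the receptors TGFBR1 and TGFBR2, the SMAD genes SMAD2, SMAD3, SMAD4, SMAD6 and SMAD7, and the corepressor genes SKI, SKIL and TGIF1. A peak was counted for a gene when the deposited list named that gene as the one with the nearest transcription start site (TSS), at any distance. By this rule the genes held 19 of 12471 peaks in replicate 1 and 34 of 27281 peaks in replicate 2.

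The ChIP-seq used an antibody against FOXK2 in OVCAR5 cells of passages 4 to 6, grown in serum-containing medium, and was done in 2 replicates. The methods of the study call them biological replicates, and the labels name no treatment or genetic change. With 1 line and 1 condition, conditions could not be compared, the identity of the line could not be checked from peaks, and the input library made for each replicate was not used here.

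TGF-β ligands bind TGFBR2, which recruits and phosphorylates TGFBR1. The activated receptor phosphorylates SMAD2 and SMAD3, which join SMAD4 and move to the nucleus, where they bind DNA weakly on their own and act with partner factors such as AP-1 and forkhead proteins. SMAD6 and SMAD7 are inhibitory SMADs that feed back on the receptors, and SKI, SKIL (SnoN) and TGIF1 are corepressors that hold SMAD complexes in check. In ovarian cancer cells the pathway is known for its part in invasion and epithelial-mesenchymal transition. FOXK2 recognises a forkhead motif whose core heptamer is TGTTTAC.

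Peaks that overlapped between the replicates by at least 1 bp formed 17 pairs, and the bases that both peaks of a pair had in common carried the sequences shown here. Sequences are from hg38, plus strand, 5′ to 3′, and capitals mark matches on either strand to TGTTTAC, to the close variant TATTTAC or to the AP-1 site TGACTCA (on the other strand GTAAACA for the first, GTAAATA for the variant and TGAGTCA for the AP-1 site). TATTTAC was added to the search after the sequences were seen. Stretches annotated as untranslated regions are not shown. The first group shows the 3 pairs in which an exact forkhead heptamer lay in both peaks, the SMAD3 pair upstream of an alternative start and the intronic pairs of TGFBR2 and SMAD7.
SMAD3 intron 1, chr15:67135528-67135738: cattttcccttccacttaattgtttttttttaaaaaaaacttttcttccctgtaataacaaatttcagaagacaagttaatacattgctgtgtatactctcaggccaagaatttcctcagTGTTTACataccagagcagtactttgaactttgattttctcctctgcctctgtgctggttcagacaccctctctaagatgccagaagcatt
TGFBR2 intron 3, chr3:30659468-30659634: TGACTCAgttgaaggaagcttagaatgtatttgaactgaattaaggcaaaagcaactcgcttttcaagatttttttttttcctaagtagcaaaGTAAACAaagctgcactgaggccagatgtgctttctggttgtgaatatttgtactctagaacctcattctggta
SMAD7 intron 2, chr18:48946605-48946813: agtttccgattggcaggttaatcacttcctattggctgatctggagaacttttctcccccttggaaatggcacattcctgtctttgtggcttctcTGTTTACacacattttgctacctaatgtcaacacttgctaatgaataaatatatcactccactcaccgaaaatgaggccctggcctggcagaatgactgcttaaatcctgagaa

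In the TGFBR2 sequence an AP-1 site began at the first base of the shared stretch, at 30659468, and the forkhead heptamer lay at 30659561 to 30659567 on the minus strand. The heptamers of SMAD3 and SMAD7 lay on the plus strand, at 67135648 to 67135654 and at 48946700 to 48946706. The next pair of sequences shows peaks that lacked the exact heptamer and held TATTTAC instead, the strongest SMAD6 peak and the SMAD2 promoter peak.
SMAD6 intron 3, chr15:66723963-66724169: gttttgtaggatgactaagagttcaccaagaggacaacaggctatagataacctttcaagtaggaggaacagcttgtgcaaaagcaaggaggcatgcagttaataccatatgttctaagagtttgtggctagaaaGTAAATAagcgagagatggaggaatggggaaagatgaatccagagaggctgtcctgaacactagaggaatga
SMAD2 promoter, chr18:47931567-47931776: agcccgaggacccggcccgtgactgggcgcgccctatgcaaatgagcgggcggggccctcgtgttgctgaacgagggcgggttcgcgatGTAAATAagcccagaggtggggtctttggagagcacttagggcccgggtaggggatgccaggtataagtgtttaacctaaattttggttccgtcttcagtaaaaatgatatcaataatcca

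The last pair shows AP-1 sites, in the strongest pair of all, at the internal SMAD3 promoter (only the part before the transcript start is shown), and in the distal SKIL pair.
SMAD3 internal promoter, chr15:67125659-67125715: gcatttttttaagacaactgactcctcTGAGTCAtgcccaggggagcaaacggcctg
SKIL upstream, chr3:170308013-170308125: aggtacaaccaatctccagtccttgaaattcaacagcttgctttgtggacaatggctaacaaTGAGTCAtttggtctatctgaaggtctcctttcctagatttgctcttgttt

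FOXK2 peaks were assigned to 9 of the 10 genes in replicate 1, where 31.3% of 20033 protein-coding genes had a peak, and to all 10 genes in replicate 2, where 51.7% did. A peak in both replicates was found for 9 genes, against 28.6% of protein-coding genes, and the same 9 genes had peaks that overlapped between replicates, against 25.5%. TGFBR1 was the exception. The genes were longer than most, from 31.1 kb for SMAD7 to 130.0 kb for SMAD3 with a median of 67.7 kb, against a median of 24.1 kb for protein-coding genes. Among protein-coding genes at least as long as SMAD7, 34.6% had overlapping peaks. In the higher-scoring part of each list, overlapping peaks were found for 6 of the 10 genes and for 16.4% of protein-coding genes. Since the genes were chosen with earlier results of these data known, these shares are given as a description, with no test.

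Of the 19 peaks of replicate 1, 17 overlapped a peak of replicate 2 (89.5%, Wilson 95% interval 68.6% to 97.1%), against 74.9% of the whole list. Of the 34 peaks of replicate 2, 17 overlapped a peak of replicate 1 (50%, 34.1% to 65.9%), against 34.2%. The background value of replicate 1 lay inside the interval and that of replicate 2 at its lower end. These background values were not matched for score. The median score was 6.41 against 5.85 for the list in replicate 1, and 10.95 against 7.29 in replicate 2. Among replicate 2 peaks of like rank, 93.8% had a partner around the strongest of the 34 and 5.8% around the weakest. The shares thus do not show whether the peaks were better reproduced than others of like score. The median gap between the centres of a pair was 27 bp, with the smallest, 3 bp, in the second SMAD3 pair by score and the largest, 121 bp, in the SKIL pair. The other 2 peaks of replicate 1 and 17 peaks of replicate 2 had no partner.

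Each peak carried a HOMER peak score, which is scaled within its library, so ranks were taken list by list and are given as a percentile, the percentage of peaks in the list with a lower score. The spacing of the low scores gives the number of tags in a peak, if 1 step of the score stands for 1 tag. Intervals on single scores are exact Poisson 95% intervals of these tags and cover counting error only, as do the Wilson intervals. None of the 10 genes was among the strongest targets: their best peak ranked 974 in replicate 1 and 1202 in replicate 2. Still, 13 of 19 peaks in replicate 1 and 26 of 34 in replicate 2 had a percentile of at least 50, and the median percentile over all 19 and all 34 was 56.1 and 75.25.

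**Figure D1:**
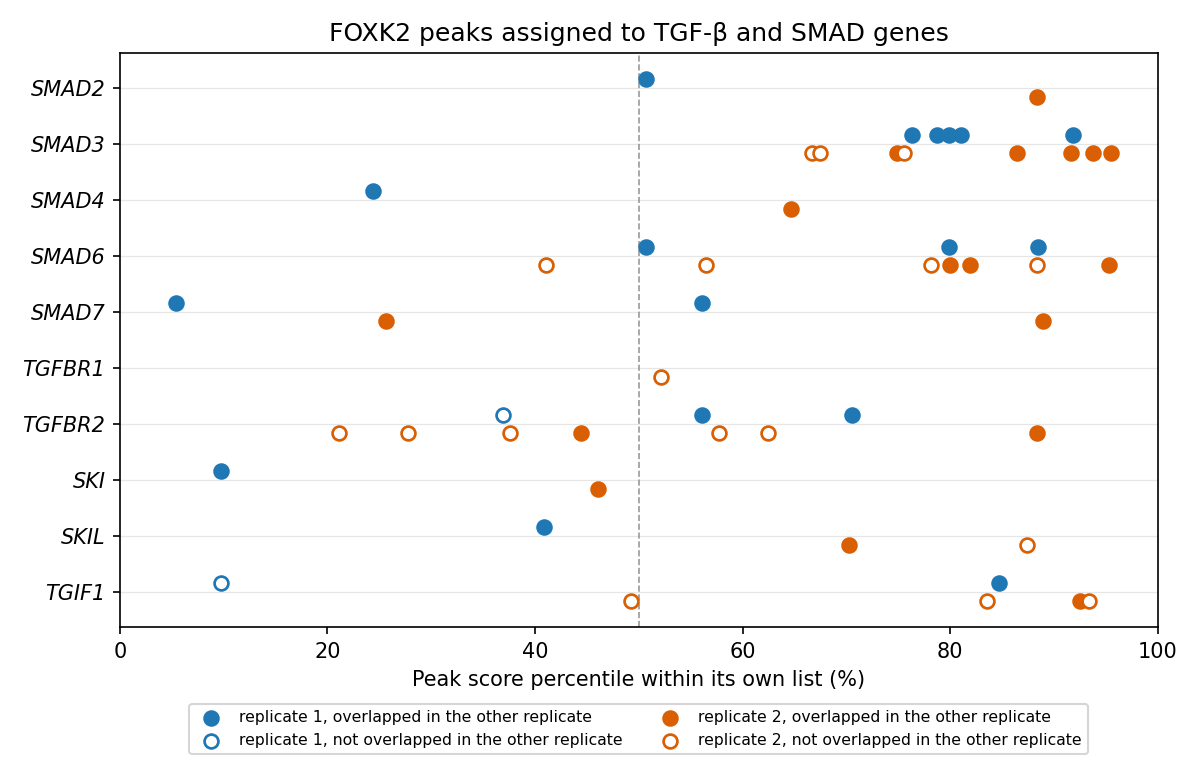
Score percentile within its own list (x axis, %) of each FOXK2 peak assigned to the 10 genes (y axis), with replicate 1 in blue and replicate 2 in orange and filled points for peaks overlapped in the other replicate. SMAD3 peaks sit at or above 66.7 in both lists, while SKI has a single pair at 9.7 and 46.1 and TGFBR1 a single unpaired peak at 52.1.

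Ordered by the mean percentile of their best pair, the genes ran SMAD3, SMAD6, TGIF1, TGFBR2, SMAD7, SMAD2, SKIL, SMAD4 and SKI. Neighbours in this order had overlapping counting intervals in both lists. The ends of the order were apart in both lists: the best SMAD3 score (12.6 in replicate 1, interval 9.79 to 16.1, and 22.0 in replicate 2, interval 18.6 to 25.9) was above that of SKI (4.15, interval 2.6 to 6.28, and 6.99, interval 5.14 to 9.3).

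SMAD3, a receptor-regulated SMAD on chromosome 15, held 5 peaks in replicate 1 and 8 in replicate 2, and all 5 of replicate 1 had a partner. In replicate 1, SMAD3, SMAD6 and TGFBR2 had at least 3 peaks, as did 3.3% of protein-coding genes. At least 5 peaks in replicate 1 were found for 0.574% of protein-coding genes, and at least 8 in replicate 2 for 0.694%. The cutoffs of 5 and 8 are the counts of SMAD3 itself. None of these shares was matched for gene length, and SMAD3 spans 130.0 kb against a median of 24.1 kb for protein-coding genes. Whether such counts are unusual for genes of that length was not tested. The strongest pair lay at the start of a shorter SMAD3 transcript inside intron 1 of the canonical transcript, 47 bp and 71 bp downstream of that start, with a score of 12.6 (67 tags) in replicate 1 and 22.0 (148 tags) in replicate 2. It held no exact forkhead heptamer within 100 bp of its centre in either replicate. The pair with the heptamer, at -2388 bp and -2385 bp from the nearest start, scored 9.24 (percentile 81.1) and 19.5 (percentile 93.8), and its centres were 3 bp apart.

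The other 3 SMAD3 pairs were also in intron 1. The pair at 25529 bp and 25499 bp held an AP-1 site and scored 9.05 and 14.4. The pair at -16159 bp and -16111 bp scored 8.87 and 17.7, and that at 16523 bp and 16530 bp scored 8.49 and 10.9, and neither held any of the 3 heptamers. Replicate 2 alone had a peak at the canonical SMAD3 promoter, -337 bp from the TSS, with a score of 11.0 (interval 8.64 to 13.8, percentile 75.6). All paired SMAD3 peaks thus lay between the canonical promoter and the end of intron 1, and the canonical promoter itself was called in 1 list only.

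SMAD6, an inhibitory SMAD gene upstream of SMAD3 on the same chromosome, held 3 peaks in replicate 1, each with a partner, and 7 in replicate 2. The strongest, in intron 3 of the canonical transcript within a LINE L2c repeat, scored 11.1 (interval 8.47 to 14.4) in replicate 1 and 21.7 (interval 18.3 to 25.5) in replicate 2, ranks 1375 and 1246. The pair in intron 2, at 9607 bp and 9567 bp, scored 9.05 and 12.0 and also held TATTTAC. The third pair, in intron 3 within a MIR3 SINE at 49492 bp and 49509 bp, scored 6.04 and 12.6 and held none of the 3 heptamers. The 4 peaks found only in replicate 2 lay from 28316 bp to 100945 bp downstream of the TSS, with scores from 6.54 to 15.3, and 3 of them held an AP-1 site, which 16.6% of all replicate 2 peaks and 6 of the 34 described here did.

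The 503 kb that cover SMAD6, SMAD3 and the sequence between them, including 5000 bp at each end, held 13 peaks in replicate 1 and 20 in replicate 2, of which 11 in each list overlapped. They include 3 and 4 peaks named for LINC02206 and 2 and 1 named for LOC102723493. Among 6029 windows of this length tiled over the chromosomes, 0.166% had at least 13 peaks in replicate 1, 0.332% had at least 20 in replicate 2 and 0.182% had at least 11 overlapped peaks of replicate 1. The stretch was set to fit genes chosen with earlier results known, and each cutoff is its own count. The tiled windows were not matched for gene content, so these shares are a description, with no test. Between the genes, a gap of 283 kb, 5 peaks of replicate 1 and 7 of replicate 2, the canonical SMAD3 promoter peak included, were called, and 3 in each list overlapped.

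**Figure D2:**
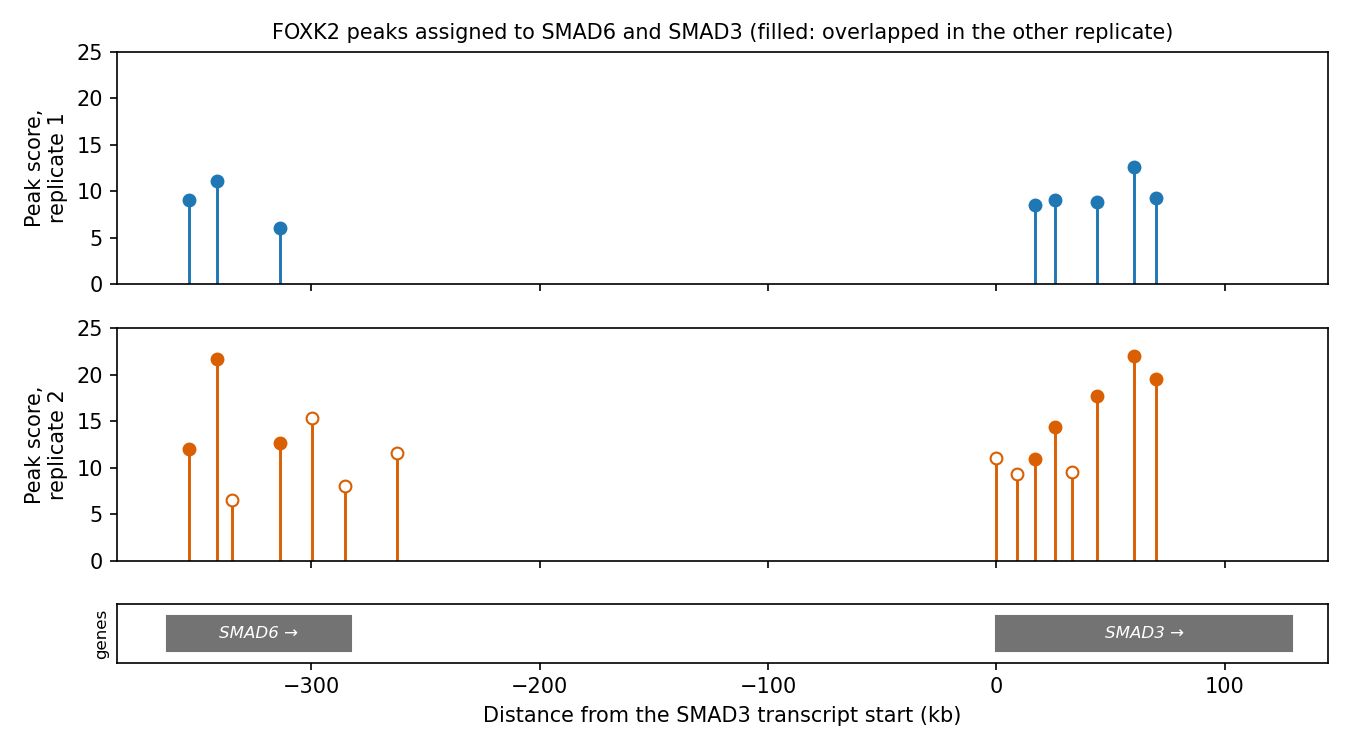
Peak scores (y axis) of replicate 1 (top) and replicate 2 (middle) against distance from the canonical SMAD3 transcript start (x axis, kb), with gene bodies at the bottom and filled points for peaks overlapped in the other replicate; only peaks assigned to SMAD6 or SMAD3 are drawn. The 8 peaks of replicate 1 all have a partner, and the highest SMAD3 score, 12.6 and 22.0, stands inside the gene and not at its start.

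SMAD7, the other inhibitory SMAD gene, on chromosome 18, had 2 peaks in each replicate, and both were paired. The stronger pair, in intron 2, scored 6.41 (interval 4.44 to 8.96) in replicate 1 and 15.8 (interval 12.9 to 19.1) in replicate 2, and its heptamer lay at -7 bp and 18 bp from the centre of the respective peak. The weaker pair lay 139 bp and 155 bp downstream of an internal SMAD7 start, with scores of 3.96 and 5.35, at percentiles of 5.38 and 25.6. No peak was assigned to the canonical SMAD7 start in either list.

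SMAD2, the other receptor-regulated SMAD gene, had 1 peak in each replicate, at its promoter, -526 bp and -502 bp from the nearest TSS. The score was 6.04 (32 tags, interval 4.13 to 8.52) in replicate 1 and 15.3 (103 tags, interval 12.5 to 18.6) in replicate 2. SMAD4, the common partner of all receptor-regulated SMADs, had 1 promoter peak in each replicate, 81 bp and 28 bp downstream of its TSS, with lower scores of 4.72 and 9.07. The stretch common to both SMAD4 peaks had a GC content of 70.2% and held none of the 3 heptamers.

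The receptors differed from each other. TGFBR2, the ligand-binding receptor, had 3 peaks in replicate 1 and 7 in replicate 2, and at least 7 in replicate 2 were found for 1.13% of protein-coding genes. The cutoff is the count of TGFBR2 itself, and the share was not matched for gene length (TGFBR2 spans 87.8 kb). The 7 peaks include those at 114837 bp and 141279 bp, which lie beyond the gene. The strongest TGFBR2 pair was in intron 3 of the canonical transcript, at 53071 bp and 53004 bp. It had a score of 7.73 (interval 5.55 to 10.5) in replicate 1 and 15.3 (interval 12.5 to 18.6) in replicate 2. The other TGFBR2 pair, 114725 bp and 114837 bp downstream of the TSS and beyond the gene, scored 6.41 and 6.84. A peak at the TGFBR2 promoter, at -17 bp from the TSS, was called only in replicate 2, with a score of 8.77, and the peak at -9059 bp was called only in replicate 1, with a score of 5.28.

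TGFBR1, the signalling receptor, had no peak in replicate 1 and 1 in replicate 2, which scored 7.58 (51 tags, interval 5.65 to 9.97). That peak lay at -49550 bp from the TGFBR1 start, in an intron of COL15A1, a collagen gene. A partner in replicate 1 was found for 22.6% of the 500 peaks ranked closest to it. Another replicate 2 peak, assigned to TGFBR2 at 141279 bp, lay in an intron of GADL1. In both cases, as for every peak here, the assignment rests on distance to the nearest TSS alone. By position in the gene body or within 5000 bp of it, 8 of the 10 genes had a peak in both replicates. No such share was taken over all genes.

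Among the corepressor genes, TGIF1 had the strongest peaks. Its pair, in intron 1 of a transcript at 439 bp and 382 bp from that transcript's start, scored 10.0 (interval 7.49 to 13.1) in replicate 1 and 18.3 (interval 15.2 to 21.8) in replicate 2, and held none of the 3 heptamers. A further TGIF1 promoter peak, at -211 bp, was called only in replicate 2, with a score of 19.2 (interval 16 to 22.8), the highest of the gene, and held TGTTTAC at -12 bp from its centre. Of the 500 peaks ranked closest to this TGIF1 peak, 86.2% had a partner in replicate 1.

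SKIL had 1 pair, at -49665 bp and -49544 bp from its TSS, with scores of 5.47 and 9.96, and a promoter peak at -155 bp only in replicate 2, with a score of 14.9 (percentile 87.4). Of the 500 peaks nearest to that SKIL peak in rank, 73.6% had a partner in replicate 1. SKI had 1 promoter peak in each replicate, at -834 bp and -826 bp from the nearest TSS, with scores of 4.15 and 6.99. The shared SKI stretch was the richest in GC of the 17, at 76.3%, and held none of the 3 heptamers.

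**Figure D3:**
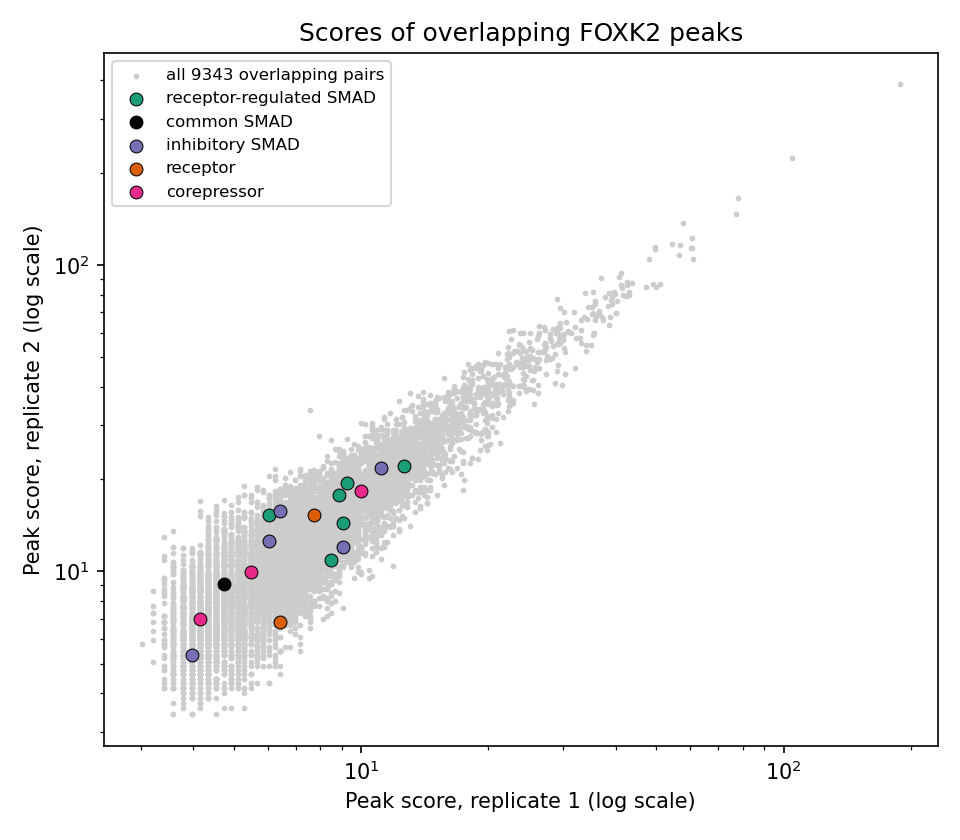
Peak score in replicate 1 (x axis, log scale) against that in replicate 2 (y axis, log scale) for all 9343 overlapping pairs of the lists (grey) and the 17 pairs of the 10 genes, coloured by role. The 17 pairs lie inside the grey cloud in its lower and middle part, with the strongest at 12.6 and 22.0.

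The score of replicate 2 was 1.83 times that of replicate 1 at the median of the 17 pairs, from 1.07 for the distal TGFBR2 pair to 2.53 for SMAD2. Over all 9343 pairs the median was 1.73, with 1.12 at the 5th percentile and 2.5 at the 95th. Only the distal TGFBR2 pair and SMAD2 lay outside that range. The ratio also reflects the scaling of each library, and no test was run on it.

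By the deposited annotation, 10 of 19 peaks in replicate 1 (52.6%, 31.7% to 72.7%) and 21 of 34 in replicate 2 (61.8%, 45.0% to 76.1%) were intronic, against 39.0% and 40.6% of the whole lists. In replicate 2, SMAD3, SMAD6 and TGFBR2 held 8, 7 and 7 of the 34 peaks, so the peaks were not independent. The intronic peaks include those in COL15A1 and GADL1. The genes were longer than most, and these shares were not matched for gene length. Intergenic peaks numbered 4 in each list (21.1%, against 34.1%, and 11.8%, against 36.5%). Promoter peaks numbered 4 in replicate 1 (21.1%, against 21.7%) and 8 in replicate 2 (23.5%, against 18.0%). Within 1000 bp of a TSS, 6 genes had overlapping peaks (SMAD2, SMAD3, SMAD4, SMAD7, SKI and TGIF1), against 11.0% of protein-coding genes. Replicate 2 added SKIL and TGFBR2, for a total of 8 genes against 25.2%, and replicate 1 added none to the 6, against 14.2%. Focus ratios, the fraction of tags on the expected side of the centre, spanned 0.619 to 0.878 for the peaks of replicate 1, and for those of replicate 2 the span was 0.584 to 0.893. Their medians were 0.765 and 0.758, against 0.758 and 0.755 for the whole lists.

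The exact forkhead heptamer TGTTTAC was present, up to 100 bp from the centre, in 4 of 19 peaks in replicate 1 (21.1%, Wilson 95% interval 8.51% to 43.3%), against 30.5% of the whole list. In replicate 2 it lay in 7 of 34 peaks (20.6%, 10.3% to 36.8%), against 28.2%. Both background values were inside the intervals. The peaks with the heptamer belonged to SMAD3, SMAD7 and TGFBR2 in both replicates and to SKIL and TGIF1 in replicate 2 alone. TATTTAC was in 3 peaks of replicate 1 (15.8%, against 8.09%) and 4 of replicate 2 (11.8%, against 8.42%), all of SMAD2, SMAD6 or TGFBR2. Either heptamer was in 7 peaks of replicate 1 (36.8%, against 37.0%) and 11 of replicate 2 (32.4%, against 35.2%), and the looser TGTTTNC in 36.8% (against 45.9%) and 41.2% (against 43.8%). The median distance of a TGTTTAC match from the centre was 13.5 bp in replicate 1 and 17 bp in replicate 2.

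The AP-1 site TGACTCA was in 5 of 19 peaks of replicate 1 (26.3%, 11.8% to 48.8%), against 16.4%, and in 6 of 34 of replicate 2 (17.6%, 8.35% to 33.5%), against 16.6%. Its matches lay farther from the centres, at a median of 58 bp and 36 bp. The palindromic SMAD element GTCTAGAC was in 0 of 19 and 0 of 34 peaks, which allows a share of up to 15.8% and 8.82% when the limit for a count of 0 is set at 3 counts of the total (the Wilson upper limits were 16.8% and 10.2%), and in 0.128% and 0.125% of the whole lists. The short SMAD box GTCTG, which overlaps the palindrome in its first letters, was in 5 peaks of replicate 1 (26.3%, against 34.3%) and 12 of replicate 2 (35.3%, against 34.0%). A match is a description of letters only, and for TGACTCA and GTCTG the share of the whole list lay inside each interval. Over the shared stretches, 6 of 17 held TGTTTAC or TATTTAC (against 40.4% of all 9343 pairs), 5 held TGACTCA (against 17.1%) and 10 held at least 1 of the 3 (against 50.8%). These counts are a description of 17 stretches, several from the same gene, with no test.

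**Figure D4:**
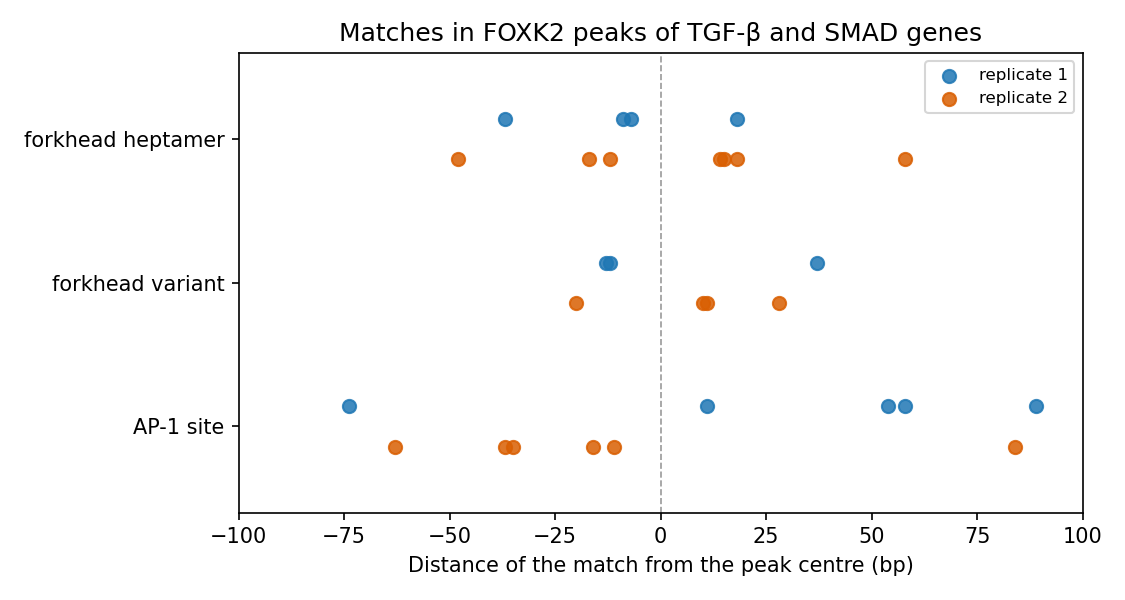
Distance of each match from the centre of its peak (x axis, bp) for the forkhead heptamer TGTTTAC, its variant TATTTAC and the AP-1 site TGACTCA in peaks of the 10 genes, with replicate 1 in blue and replicate 2 in orange. Forkhead matches lie between -48 and 58 bp and AP-1 matches between -74 and 89 bp. A site in a paired peak appears once for each replicate in which it lies within 100 bp of the centre.

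A list of 63 other TGF-β pathway genes gave 31 genes with a peak in both replicates and 25 with overlapping peaks (39.7%, against 25.5% of protein-coding genes). All 63 symbols matched the gene reference. The counts of overlapping peaks were 5 of 13 ligands, 6 of 11 receptors, 0 of 3 SMADs of the BMP branch, 3 of 11 extracellular binders, 5 of 13 SMAD regulators and 6 of 12 target genes. SMAD1 and SMAD9 of the BMP branch had a peak only in replicate 2, with best scores of 6.54 and 12.2, and SMAD5 had none. TGFB1, the main ligand, had 2 peaks only in replicate 2 with a best score of 5.8, TGFB3 a single peak only in replicate 1 with a score of 4.9, and TGFB2 none.

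Some of these genes had pairs stronger than any of the 10 in both lists. The ACVR2B promoter pair, of an activin type II receptor gene, scored 28.9 in replicate 1 and 59.8 in replicate 2, ranks 104 and 88. PPM1A, which encodes a phosphatase known to act on SMAD2 and SMAD3, had a pair in its intron 500 bp and 531 bp from the TSS, with scores of 18.3 and 44 and 1 heptamer in each. An intronic pair of TGFBI, a TGF-β-induced matrix protein gene, scored 17.7 and 34.5. The strongest of 3 pairs assigned to THBS1, a thrombospondin gene that encodes an activator of latent TGF-β, scored 10.9 and 20.4, below the best SMAD3 pair in both lists. It lay 43814 bp and 43801 bp from the THBS1 start, past the end of that gene and within the neighbouring gene FSIP1.

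The target gene JUNB, an AP-1 subunit gene, had the highest mean percentile of the list, 99.5, with a promoter pair at 33.0 and 57.6, and the MYC pair scored 14.0 and 35.7. Distal pairs were found for NOG, a BMP antagonist gene (20.0 and 27.7 at 105748 bp and 105729 bp), and for INHBA, an activin subunit gene (13.4 and 20.2 at -213676 bp and -213598 bp). PMEPA1, whose product restrains SMAD2 and SMAD3, had a promoter pair at -30 bp and -44 bp with scores of 10.6 and 19.3. BMP4 had 4 pairs, the best at 9.62 and 20.7. The targets ID1, ID2, ID3, CDKN1A, CDKN2B and SNAI1 had no peak in either list.

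**Figure D5:**
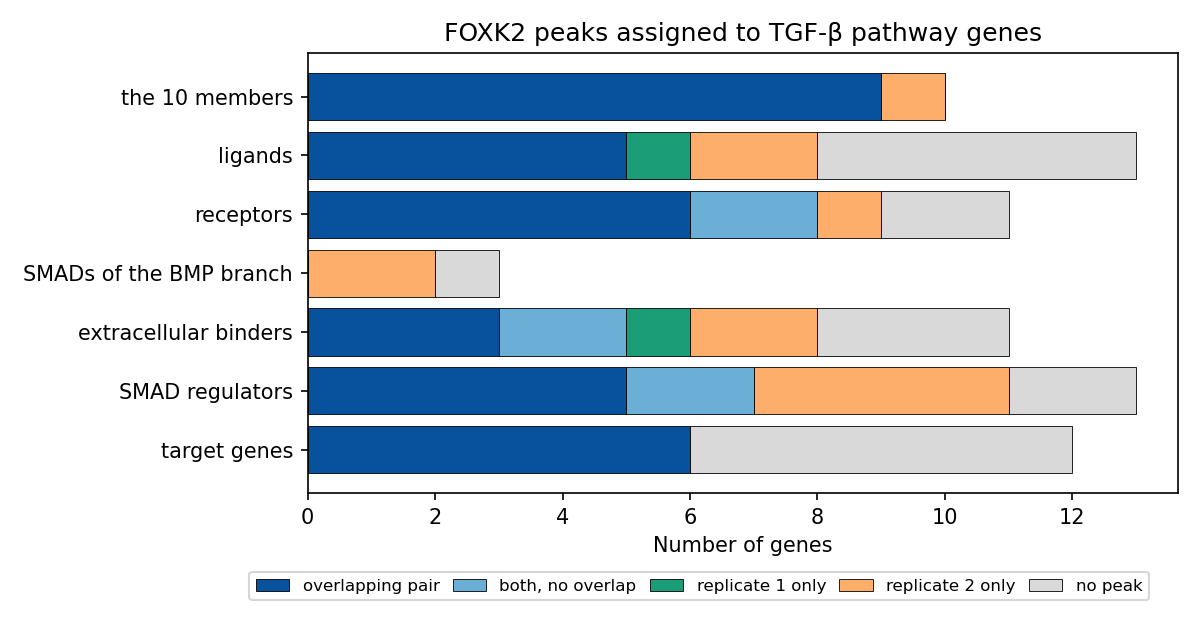
Number of genes (x axis) in each role (y axis) by whether FOXK2 peaks were assigned in both replicates with overlap, in both without overlap, in 1 replicate only or in none. Overlapping pairs were found for 9 of the 10 members and 25 of the 63 other pathway genes, and for none of the 3 SMADs of the BMP branch.

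By the percentiles of their best peaks in the 2 lists, the genes nearest to SMAD3 (91.88 and 95.53) among 7615 with a peak in both were YPEL5, LOC101927845 and GGNBP2, at distances of 0.0696, 0.0916 and 0.266 percentile points. This likeness is of peak strength in 2 libraries only.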

How the data were processed

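Peak lists from 2 replicates of FOXK2 ChIP-seq in OVCAR5 were used. The authors mapped reads to hg38 with Bowtie2 2.2.6, called peaks in each library with HOMER 4.10 and annotated them to the nearest TSS. Whether the input libraries served as control in peak calling is not given in the sources used here, so a score cannot be read as enrichment over input. The deposited peak score is scaled within each library, and the deposited focus ratio is a fraction of tags. Peak end minus start was 210 bp in all peaks of replicate 1 and 256 bp in all of replicate 2, and both end bases were counted in shared stretches. The step between scores implied 53000000 and 67200000 tags in the libraries, if they were scaled to HOMER's default of 10000000 tags. With 1 step taken as 1 tag, a peak held at least 16 and 21 tags. All scores under 10 were whole multiples of the step within 0.0051.

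The genes and lists were chosen with earlier results of these data known. Named pathway genes were the 10 with the best overlapping pair. The genes named for lacking peaks or overlap were chosen after their values were seen. Genes were matched by gene ID to the RefSeq table of GRCh38.p14, and transcripts came from GENCODE release 44. The motif search covered both strands, 100 bp to each side of a centre. Single peaks were compared with 500 neighbours in rank. With 1 condition, no test between groups was made. The overlap, motif and step routines were tested on simulated data. Alternatives covered score, list length, distance, overlap, window, motif and gene assignment. Input libraries were not analysed here. Python 3.11.15, numpy 2.4.6, pandas 2.3.3, scipy 1.17.1 and matplotlib 3.10.9 were used.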

Additional observations from a re-analysis of the deposited data

Results flagged for a closer look

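A peak just beyond the 3′ end of SKI, 83404 bp from the SKI start in replicate 1 and 83379 bp in replicate 2, drew attention as a signal outside the peaks counted for the 10 genes, since the lists name LOC100129534 for it. Its score was 8.3 in replicate 1 (percentile 74.9) and 16.5 in replicate 2 (percentile 90.2), above the SKI promoter peaks at 4.15 and 6.99. The peaks overlapped between replicates and each held 1 TGTTTAC. Which gene the site acts on was not tested.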

How the results depend on the processing

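No paired analysis was possible because each replicate number has 1 peak list here, of 1 condition. Of 35 alternative values for the 7 main counts and shares, 34 stayed within 1.5 times the main count or inside the 95% interval of the main share. With TGTTTNC in place of TGTTTAC, the share of replicate 2 peaks with a match moved from 20.6% to 41.2%, where 43.8% of the whole list held it. Every TGTTTAC match is also a TGTTTNC match, so the share could not be lower. With TATTTAC added, chosen after seeing the data, the shares were 36.8% and 32.4%, against 37.0% and 35.2% of the lists. Genes with overlapping peaks ranged from 6 in the higher-scoring part of each list, where 16.4% of protein-coding genes had them, to 9. The 6 lay at the limit of 1.5 times. Leaving out each replicate gave 9 to 10 genes with a peak. Both values are among the 34, but neither could fall below the 9 genes with a peak in both lists, so they test nothing. With 19 and 34 peaks, the intervals of shares were wide.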

Other observations

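The peaks found only in replicate 2 included promoter peaks of 4 genes: TGIF1 (score 19.2), SKIL (14.9), SMAD3 at its canonical start (11.0) and TGFBR2 (8.77). Among the 500 replicate 2 peaks nearest in rank to each, the share with a partner in replicate 1 was 86.2% for TGIF1, 73.6% for SKIL, 52.6% for SMAD3 and 38.4% for TGFBR2. The focus ratios of these peaks were 0.741, 0.584, 0.616 and 0.689, against a median of 0.755 for the list. The intronic SMAD6 peak found only in replicate 2 at 63532 bp scored 15.3, and 77.8% of its neighbours in rank had a partner.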
